A study of Mus musculus with 4 samples.

Results

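The genes described here are 8 regulators and markers of resting, recirculating T cells: *Tcf7*, *Lef1*, *Bach2*, *Satb1*, *Foxp1*, *Klf2*, *S1pr1* and *Dapl1*. They were taken as a fixed list of symbols, 8 of the 32285 genes counted in each library, and each of them was detected in both libraries. Their levels are given across classes of hepatic CD4+ T cells set by other marker genes, within *Foxp3* cells (regulatory T cells, by an RNA molecule of *Foxp3*), by clone size and between the 2 genotypes' libraries. No gene of the list took part in setting a class.

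Resting T cells circulate between blood and lymphoid tissue and return to the blood along a gradient of sphingosine 1-phosphate, which their receptor S1PR1 senses. The zinc finger factor KLF2 drives transcription of *S1pr1* and is lost on activation. TCF1 (from *Tcf7*) and LEF1 are related HMG box factors that act with β-catenin in the Wnt pathway and maintain naive and memory-like T cells. BACH2 represses effector genes, SATB1 organises chromatin in developing and naive T cells, and the forkhead factor FOXP1 holds naive T cells in quiescence. *Dapl1* encodes a small protein named for its likeness to death-associated protein, and its RNA marks naive T cells. Cells held in tissues such as the liver typically express less of this group.

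The CD4+ T cells were sorted by flow cytometry from livers of male mice that had been on a choline-deficient diet (60 kcal% fat, 0.1% methionine), a model of steatohepatitis, for 8 weeks. The groups were WT mice and mice lacking *Nr4a1* and *Nr4a2* in T cells (*Nr4a1* fl/fl *Nr4a2* fl/fl Cd4-Cre, dKO), in which the Cd4 promoter drives Cre, so that it acts in T cells. Cells of 2 mice were pooled per genotype, so that each genotype is 1 library of RNA with 1 library of T cell receptors, and no test between genotypes could be run. Parentheses, or brackets within them, hold exact 95% intervals that cover counting error only, and not the spread between mice.

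After filtering, 10556 cells of the WT-labelled library and 17462 of the dKO-labelled library were left, with medians of 1679 and 1685 unique molecular identifiers (UMIs, each 1 counted RNA molecule) per cell. T cells made up 66.9% and 64.1% of them, and plasmacytoid dendritic cells (pDCs) 13.6% and 19.9%, so the labelled cell type did not cover all cells. In T cells, *Cd8a* was at 1 and 6 UMIs. The libraries shared 242 barcodes, which were kept. *Nr4a1*, one of the deleted genes, had 731 CPM (718 to 744) in T cells of the WT-labelled library and 1926 CPM (1907 to 1945) in the dKO-labelled library, and *Nr4a2* had 205 CPM (198 to 212) and 439.6 CPM (431 to 449). Both went against the labels, and a UMI does not tell whether the RNA carries the deleted part. The libraries are therefore called WT-labelled and dKO-labelled, and each direction between them is one between labels. *Foxp3* cells were 3.85% and 17.3% of the libraries and cells with *Ifng* alone 13.2% and 4.04%.

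Levels are the UMIs of a gene over all UMIs of the same group of cells, in counts per 1e6 (CPM). Another lineage was called by 3 or more of its marker genes, or 2 for B cells. Cells with 2 or more of 6 T cell receptor and CD3 genes and no such call were called T cells, so a T cell could hold fewer of those markers. T cells were divided, in order, into low-ribosomal droplets (under 5% of UMIs from ribosomal protein genes), *Foxp3* cells, cycling cells, *Ifng* or *Il17* cells (the effector cytokines interferon-γ and interleukin 17), cytotoxic-type cells (*Fasl* or *Klrk1*), naive-like cells (*Ccr7*, the receptor that guides T cells into lymph nodes, and no *Cxcr6*), *Cd40lg* helper cells and the rest, called other T. The naive-like class held 824 cells of the WT-labelled library and 542 of the dKO-labelled library, the *Ifng* or *Il17* cells 1548 and 1002, the *Foxp3* cells 406 and 3021, and other T 1596 and 4988. Wherever 2 values follow each other without a library name, the WT-labelled library comes first. *Ikzf2*, which encodes the regulatory T cell factor Helios, had 869 and 1167 CPM in *Foxp3* cells and 126 and 619 CPM in T cells without *Foxp3*. Other T had 227 and 902 CPM of *Ikzf2*, so in the dKO-labelled library this class held RNA of a regulatory T cell marker without a *Foxp3* UMI.

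The members differ in gene length and promoter type. On GRCm38 (GENCODE M21), *Foxp1* spans 597 kb (chr6:98925338-99522721), *Bach2* 347 kb (chr4:32238804-32586108), *Lef1* 114 kb (chr3:131110471-131224356), *Satb1* 97.1 kb (chr17:51736187-51833290) and *Tcf7* 30.6 kb (chr11:52252371-52283014). *Dapl1* spans 20.4 kb (chr2:59484653-59505020), *S1pr1* 4.64 kb (chr3:115710433-115715072) and *Klf2* 2.62 kb (chr8:72319033-72321656). The transcription factors thus include the long genes, and the recirculation genes *Klf2* and *S1pr1* are the shortest of the 8.

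RefSeq promoters (GRCm38.p6, 250 bases before to 50 after a start) were matched for 7 members, all but *S1pr1*. Their count of CpG was 45 in *Tcf7*, 32 in *Klf2*, 21 in *Lef1*, 13 in *Foxp1*, 8 in *Satb1*, 7 in *Bach2* and 5 in *Dapl1*, against a median of 7 over 32851 promoters of 27025 genes. The *Bach2* window lies 178631 bases inside the GENCODE gene and that of *Foxp1* 1728, so both describe starts within the gene. The letters CACCC (bound by KLF factors), CTTTGA (TCF and LEF) and GTAAACA (FOXO) were searched on both strands, and none of them contains another. CACCC was in 5 of the 7 windows and in 57.5% of all promoters, CTTTGA in 1 (*Bach2*) and 16.0%, and GTAAACA in 1 (*Dapl1*) and 3.65%. The promoters of 4 members are shown 5′ to 3′ on the gene's strand, with matches of the 3 motifs in capitals. *Klf2* and *Dapl1* stand for the genes whose naive-like level was not lower in the dKO-labelled library, and *Lef1* and *Satb1* for those whose level was. They lie at chr8:72318812-72319111 (+), chr2:59484403-59484702 (+), chr3:131110073-131110372 (+) and chr17:51833241-51833540 (−). A match is a description of the letters alone.
Klf2: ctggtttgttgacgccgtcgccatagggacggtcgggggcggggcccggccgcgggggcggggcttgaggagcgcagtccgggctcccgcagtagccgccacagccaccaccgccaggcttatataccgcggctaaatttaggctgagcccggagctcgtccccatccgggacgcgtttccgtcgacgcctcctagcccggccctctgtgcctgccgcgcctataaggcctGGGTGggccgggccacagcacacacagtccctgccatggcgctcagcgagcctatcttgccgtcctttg
Dapl1: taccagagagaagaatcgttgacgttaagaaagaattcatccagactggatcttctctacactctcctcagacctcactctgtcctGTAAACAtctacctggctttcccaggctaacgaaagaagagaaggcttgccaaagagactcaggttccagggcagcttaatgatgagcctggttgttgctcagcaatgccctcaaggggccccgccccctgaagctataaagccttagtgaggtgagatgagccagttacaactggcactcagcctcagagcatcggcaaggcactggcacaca
Lef1: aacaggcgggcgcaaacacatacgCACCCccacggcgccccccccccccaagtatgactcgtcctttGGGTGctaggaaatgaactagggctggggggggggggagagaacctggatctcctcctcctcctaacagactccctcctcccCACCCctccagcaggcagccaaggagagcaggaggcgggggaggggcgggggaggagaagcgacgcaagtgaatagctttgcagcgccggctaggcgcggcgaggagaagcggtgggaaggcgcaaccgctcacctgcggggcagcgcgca
Satb1: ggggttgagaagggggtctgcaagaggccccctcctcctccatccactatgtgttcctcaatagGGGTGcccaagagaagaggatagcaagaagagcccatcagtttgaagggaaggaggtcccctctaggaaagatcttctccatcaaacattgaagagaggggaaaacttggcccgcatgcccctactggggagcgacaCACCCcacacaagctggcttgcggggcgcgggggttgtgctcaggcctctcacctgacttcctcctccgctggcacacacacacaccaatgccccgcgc

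*Tcf7* and *Lef1*, the related HMG box factors, were highest among the T cell classes in naive-like cells. *Tcf7* had 553 CPM (519 to 588) in the WT-labelled library and 576 CPM (529 to 626) in the dKO-labelled library, against 250.1 CPM (235 to 266) and 175 CPM (156 to 195) in *Ifng* or *Il17* cells and 152 CPM (130.02 to 177) and 41.0 CPM (36.0 to 46.5) in *Foxp3* cells. The naive-like intervals of the 2 libraries overlap, while those of *Foxp3* cells lie far apart. *Lef1* had 873 CPM (830.5 to 916) and 556 CPM (509.6 to 605) in naive-like cells, 171 CPM (159 to 185) and 116 CPM (101 to 133) in *Ifng* or *Il17* cells and 189.9 CPM (165 to 218) and 59.6 CPM (53.6 to 66.2) in *Foxp3* cells. Unlike *Tcf7*, *Lef1* was lower in the dKO-labelled library in each of these classes. Between the naive-like and the lowest class, a band of T cell classes of the WT-labelled library followed for *Tcf7*, from 246 CPM in cells with *Ifng* alone to 313 CPM in other T, in which neighbouring intervals overlap. *Foxp3* cycling cells were at the bottom of the T cell classes for both genes in the WT-labelled library, with 53.4 and 84.4 CPM.

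Among the repressors and chromatin factors, *Bach2* had 653 CPM (616 to 691) and 495 CPM (452 to 542) in naive-like cells, 228 CPM (213 to 244) and 138 CPM (122 to 157) in *Ifng* or *Il17* cells and 188 CPM (163 to 216) and 85.2 CPM (77.9 to 93.0) in *Foxp3* cells. *Satb1* stood at 881 CPM (839 to 925) and 634 CPM (585 to 687) in naive-like cells, at 209 CPM (195 to 224) and 168 CPM (149.8 to 188) in *Ifng* or *Il17* cells and at 176 CPM (152 to 203) and 108 CPM (100.2 to 117) in *Foxp3* cells. Of these 3 classes both were highest in naive-like cells, and both were lower in the dKO-labelled library in each, though the *Bach2* interval of low-ribosomal T in the WT-labelled library, with 507 CPM (401 to 632), overlaps that of naive-like cells. *Foxp1* had 709 CPM (671 to 749) and 468 CPM (426 to 513) in naive-like cells, 242 CPM (227 to 258) and 154 CPM (136 to 173) in *Ifng* or *Il17* cells and 343 CPM (309 to 379.8) and 123 CPM (114 to 132) in *Foxp3* cells. It was higher in *Foxp3* than in *Ifng* or *Il17* cells of the WT-labelled library and lower in those of the dKO-labelled library, with intervals apart in each. Cycling T cells held the next to lowest level of *Bach2* in both libraries, 86.9 and 72.0 CPM, above the 42.2 and 39.0 CPM of *Foxp3* cycling cells.

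*Klf2*, the driver of recirculation, had 1411 CPM (1357 to 1466) and 1693 CPM (1611 to 1777) in naive-like cells, 792 CPM (764 to 821) and 764 CPM (725 to 806) in *Ifng* or *Il17* cells and 686 CPM (638 to 737) and 359.9 CPM (345 to 376) in *Foxp3* cells. It was higher in the dKO-labelled library in naive-like cells and lower in *Foxp3* cells, and the intervals of *Ifng* or *Il17* cells overlap. *S1pr1*, the egress receptor, had 346 CPM (319.6 to 374) and 377 CPM (339 to 418) in naive-like cells, 134 CPM (122 to 146) and 106 CPM (91.6 to 122) in *Ifng* or *Il17* cells and 125 CPM (105 to 148) and 42.9 CPM (37.7 to 48.5) in *Foxp3* cells. Its naive-like levels did not differ beyond counting error, whereas in *Foxp3* cells its interval in the dKO-labelled library lay wholly below that in the WT-labelled library. Outside the naive-like class *S1pr1* in the WT-labelled library ran from other T (181 CPM) to low-ribosomal T (83.4 CPM). Neighbouring T cell classes in that order overlap, while other T lay wholly above *Ifng* only, *Foxp3*, cycling T and low-ribosomal T.

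*Dapl1* was the member most concentrated in naive-like cells. It had 118 CPM (103 to 135) and 178 CPM (152 to 206) there, 14.8 CPM (11.2 to 19.2) and 4.95 CPM (2.26 to 9.39) in *Ifng* or *Il17* cells and 11 CPM (5.69 to 19.2) and 4.74 CPM (3.15 to 6.86) in *Foxp3* cells. The next highest class was at 33.3 CPM (other T) in the WT-labelled library and 20.2 CPM (*Cd40lg* helper) in the dKO-labelled library. Low-ribosomal T held 0 UMIs of *Dapl1* in both libraries.

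**Figure D1:**
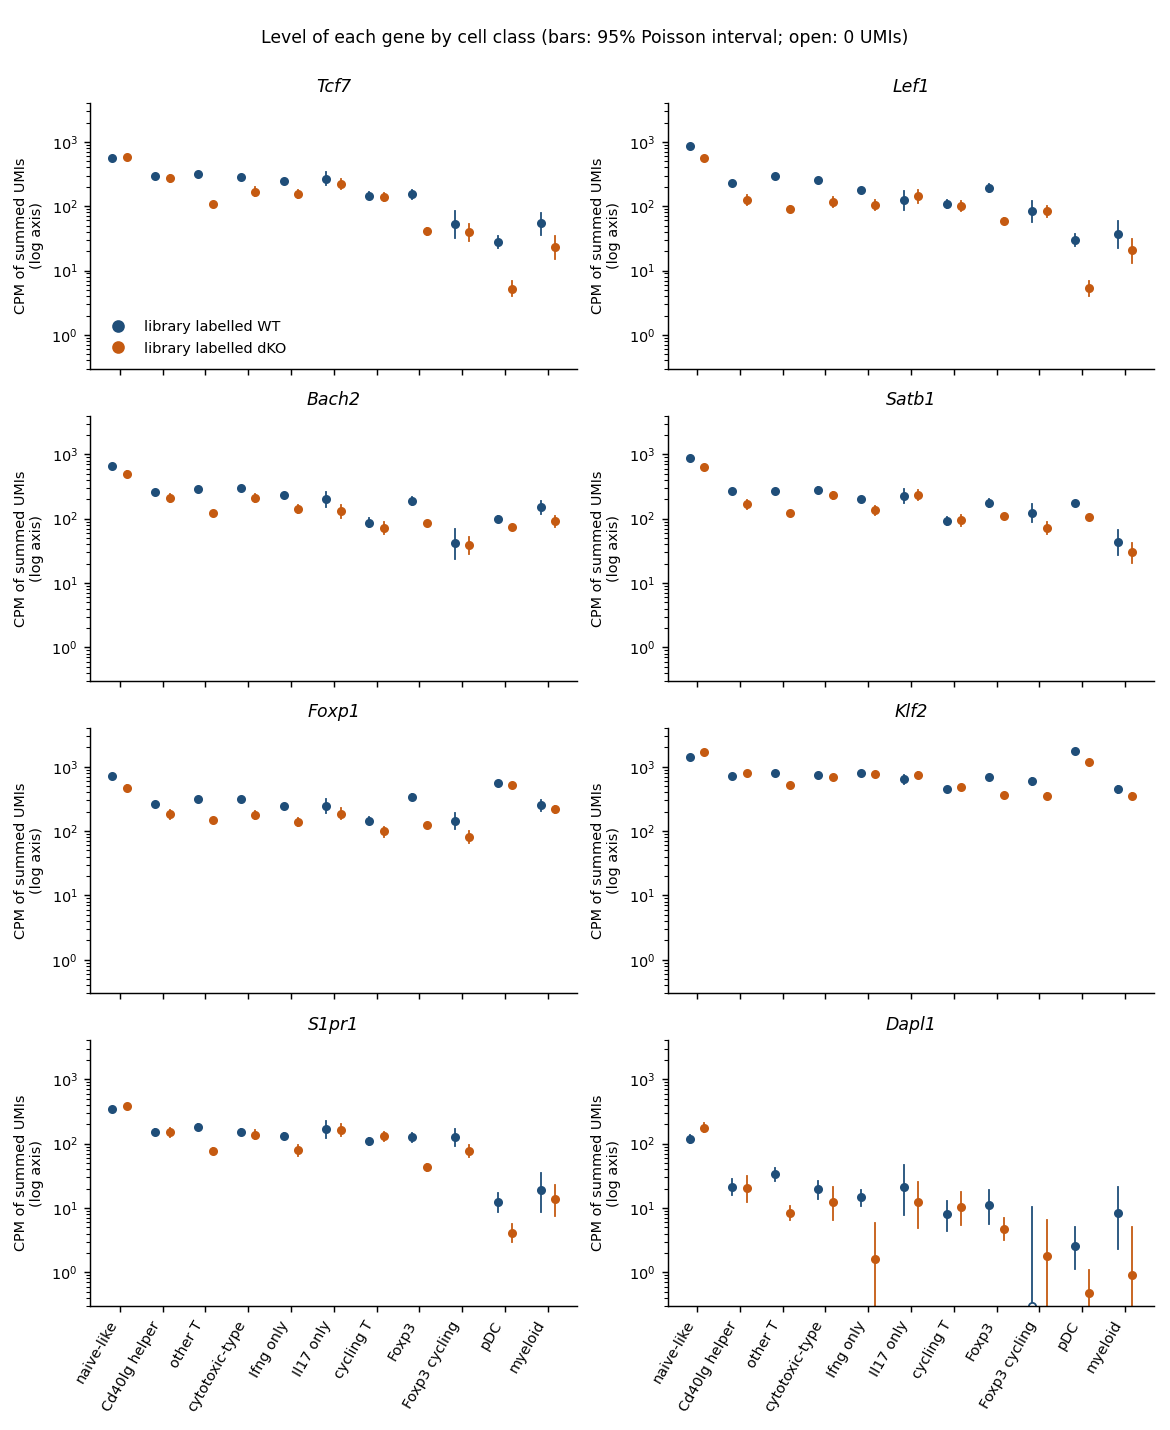
Level of each member in CPM (log axis) by cell class, with points for the WT-labelled library and the dKO-labelled library and bars for exact Poisson 95% intervals; open points are 0 UMIs. Naive-like cells hold the highest T cell level of every member in both libraries, and Klf2 and Foxp1 are also high in pDCs.

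Naive-like and *Ifng* or *Il17* cells of the same library were then compared, which asks how far the members mark resting against cytokine-producing cells of one library. Of the 8 members 7 were at least 2-fold higher in naive-like cells of the WT-labelled library, where 1.94% of all genes with enough UMIs were. All 8 were in the dKO-labelled library, against 1.9%. The median log2 ratio of the members was 1.53 and 1.83, against −0.22 and −0.13 over all genes. *Dapl1* had the widest ratio, a log2 of 3.0 (2.57 to 3.45) and 5.17 (4.21 to 6.32). *Lef1* followed with 2.35 (2.22 to 2.48) and 2.26 (2.03 to 2.5), and *Satb1* with 2.08 (1.95 to 2.20) and 1.92 (1.71 to 2.12). *Klf2* had the narrowest, 0.83 (0.76 to 0.91) and 1.15 (1.04 to 1.25), so that it passed 2-fold in the dKO-labelled library alone, and no test compared the libraries. *Tcf7* (1.14 [1.02 to 1.27] and 1.72 [1.52 to 1.92]), *Bach2* (1.52 [1.39 to 1.64] and 1.84 [1.62 to 2.06]), *Foxp1* (1.55 [1.43 to 1.67] and 1.61 [1.39 to 1.83]) and *S1pr1* (1.37 [1.20 to 1.54] and 1.83 [1.57 to 2.09]) lay between.

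The comparison also moved with other gene groups. Of 10 further naive T cell genes, 6 were 2-fold higher in naive-like cells in each library, among them *Igfbp4* (log2 3.41 and 5.51), *Actn1* (2.53 and 3.92) and *Nsg2* (2.23 and 3.41). Of 8 recirculation and homing genes 1 was 2-fold higher, *Ccr7*, which set the class. The integrin gene *Itgal* was lower (−1.12 and −1.02), and *Itga4* in the WT-labelled library alone (−1.13 and −0.33). Genes of retention and effector function were lower, 9 of 9 with enough UMIs by at least 2-fold in the WT-labelled library and 7 of 9 in the dKO-labelled library, where 10.2% and 6.08% of all genes were, with *Cxcr6* absent by the rule of the class, the effector factor *Tbx21* at −3.02 and −2.20 and *Rgs1* at −2.63 and −1.77. Of 9 quiescence genes measured outside the list, such as the antiproliferative *Btg1*, *Btg2* and *Tob1*, 0 passed 2-fold in either direction in either library, and *Btg2* was at −0.66 and −0.73. Ribosomal protein genes took a median of 32.8% and 30.7% of a naive-like cell's UMIs and 19.1% and 20.9% of an *Ifng* or *Il17* cell's, and the part of this in the ratios was not tested.

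Outside T cells the members parted. pDCs, the source of type I interferon among dendritic cells, had 1732 CPM (1687 to 1779) and 1169 CPM (1149 to 1190.1) of *Klf2* and 557 CPM (531 to 584) and 522 CPM (509 to 536) of *Foxp1*. In the WT-labelled library *Klf2* was higher in pDCs than in naive-like T cells (log2 0.30 [0.23 to 0.36]), and in the dKO-labelled library it was lower (−0.53 [−0.61 to −0.46]). The T cell factors were near the bottom of their range there, with 28.0 CPM (22.4 to 34.5) and 5.25 CPM (3.97 to 6.82) of *Tcf7*, 29.9 CPM (24.1 to 36.6) and 5.34 CPM (4.05 to 6.92) of *Lef1* and 12.2 CPM (8.64 to 16.8) and 4.12 CPM (3.0 to 5.54) of *S1pr1*. They were higher in the WT-labelled library for each of the 3 genes. Myeloid cells (216 and 326 cells) had more, with 54.0 CPM (35.3 to 79.1) and 23.5 CPM (15.4 to 34.4) of *Tcf7*, 37.4 CPM (22.1 to 59.1) and 20.8 CPM (13.2 to 31.2) of *Lef1* and 18.7 CPM (8.54 to 35.5) and 13.6 CPM (7.59 to 22.4) of *S1pr1*. For *Lef1* and *S1pr1* in the WT-labelled library, however, the myeloid and pDC intervals overlap. Either class may stand for the background from free RNA, and the part of free RNA was not tested. In the dKO-labelled library the *Tcf7* level of myeloid cells was over that of pDCs and below the 41.0 CPM of *Foxp3* cells. B cells (32 and 28 cells) held 802 CPM (578 to 1084) and 262 CPM (158 to 409) of *Bach2*, a factor that B cells also use.

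Within *Foxp3* cells the members went with the homing receptor. The central gate was a UMI of *Ccr7*, which 62 of 406 *Foxp3* cells of the WT-labelled library and 162 of 3021 of the dKO-labelled library had. With the gate, 5 of 7 members with enough UMIs were 2-fold higher in the WT-labelled library, where 0.905% of all genes were, and in the dKO-labelled library 7 of 7, where 1.48% were. *Lef1* had 371 CPM (299 to 455) with the gate and 137 CPM (113 to 165) without it in the WT-labelled library, and 224 CPM (184 to 271) and 45.3 CPM (39.8 to 51.3) in the dKO-labelled library. Its log2 ratio was 1.43 (1.02 to 1.84) and 2.31 (1.96 to 2.64). *Tcf7* had 261 against 121 CPM in the WT-labelled library (1.11 [0.64 to 1.58]) and 148 against 31.7 CPM in the dKO-labelled library (2.22 [1.80 to 2.63]), and these ratios have intervals apart. *Bach2* (1.29 [0.87 to 1.70] and 1.85 [1.54 to 2.15]), *Satb1* (1.27 [0.83 to 1.69] and 1.25 [0.94 to 1.55]) and *Foxp1* (1.16 [0.85 to 1.46] and 1.44 [1.16 to 1.70]) had ratios whose intervals overlap between the libraries.

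*Klf2* was the exception. In the WT-labelled library it had 681 CPM (581 to 792) with the gate and 688 CPM (633 to 746) without it, which overlap (log2 −0.02 [−0.27 to 0.24]). In the dKO-labelled library the values were 768 CPM (691 to 851) and 324 CPM (309 to 339.9), a log2 ratio of 1.24 (1.08 to 1.41). The intervals of the gated cells of both libraries overlap, and the libraries parted in the cells without the gate. *S1pr1* had 192 against 105 CPM in the WT-labelled library (0.86 [0.32 to 1.39]) and 127 against 35.6 CPM in the dKO-labelled library (1.84 [1.39 to 2.26]). *Dapl1* had too few UMIs for a ratio. Cells with the gate had more UMIs, medians of 3242 against 1974 in the WT-labelled library and 2672 against 1548 in the dKO-labelled library, and the part of depth in the ratios was not tested.

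**Figure D2:**
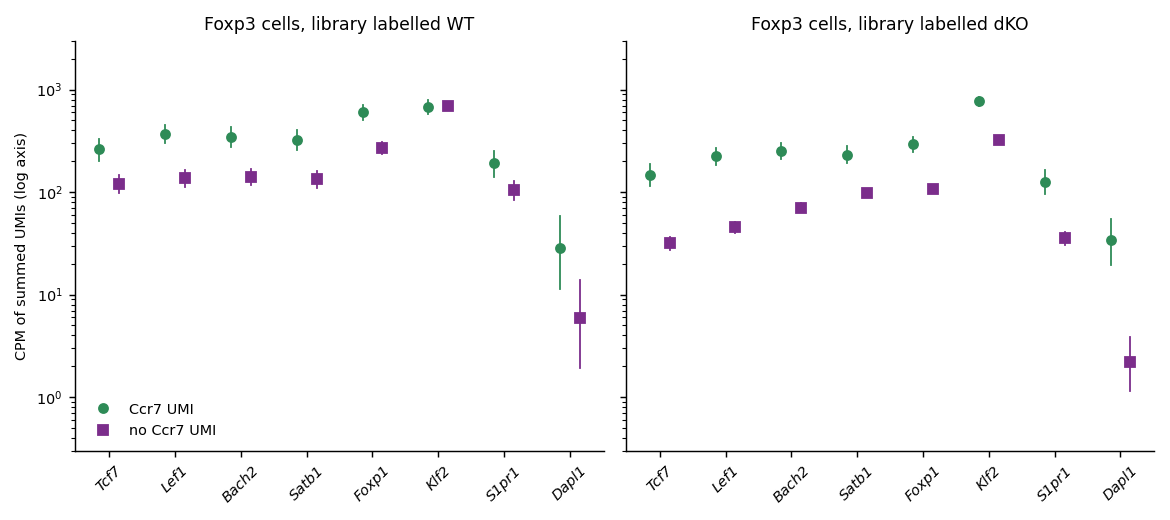
Level of each member in CPM (log axis) in Foxp3 cells with and without a UMI of Ccr7 in each library, with exact Poisson 95% intervals. The 2 Klf2 values of the WT-labelled library overlap, while those of the dKO-labelled library stand apart.

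Fewer members passed 2-fold in the other splits of *Foxp3* cells. With a UMI of *Klrg1*, a receptor of terminally differentiated cells, 0 of 7 members passed 2-fold in either library, where 1.4% and 0.277% of all genes were 2-fold lower. *Tcf7* had the largest drop, from 183 to 101 CPM in the WT-labelled library (log2 −0.86 [−1.41 to −0.34]) and from 51.6 to 28.7 CPM in the dKO-labelled library (−0.85 [−1.26 to −0.45]). *Satb1* ratios with *Klrg1* had intervals that include 0 in both libraries. Cells with *Il1rl1*, the receptor for interleukin 33, had less *Bach2* in the WT-labelled library (log2 −1.06 [−1.61 to −0.54]), whereas in the dKO-labelled library the interval includes 0 (−0.24 [−0.67 to 0.16]). *Klf2* went opposite ways with *Il1rl1*, at −0.40 (−0.64 to −0.16) and 0.25 (0.07 to 0.42). Cells with *Il10* had less *S1pr1* in the dKO-labelled library (−0.89 [−1.44 to −0.38]), but 0 of 7 members were 2-fold lower there, where 0.65% of all genes were. In the 29 such cells of the WT-labelled library all 7 ratios were below 0 and 1 member was 2-fold lower, *Tcf7* (−1.10 [−2.57 to 0.05]), where 6.41% of all genes were, and all 7 intervals include 0. With *Tigit*, *Klf2* was lower in both (−0.36 [−0.57 to −0.15] and −0.46 [−0.60 to −0.32]).

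Counted per cell, with each cell thinned to 1000 UMIs and shallower cells left out, naive-like cells had a UMI of 3.28 and 3.06 of the 8 members on average, and 4.55% (3.19 to 6.27) and 7.26% (5.11 to 9.95) of them had none. *Foxp3* cells had 1.22 and 0.575, and 31.0% (26.3 to 36.1) and 59.0% (57 to 60.9) had none. The share without any member in *Foxp3* cells was thus higher in the dKO-labelled library. *Tcf7* had a UMI in 40.6% (37.1 to 44.1) and 43.8% (39.3 to 48.3) of naive-like cells and in 11.5% (8.44 to 15.3) and 2.73% (2.13 to 3.44) of *Foxp3* cells. As background, it had a UMI in 3.56% (2.52 to 4.88) and 0.435% (0.243 to 0.716) of pDCs and in 5.75% (2.79 to 10.3) and 1.64% (0.534 to 3.78) of myeloid cells. Without thinning the *Foxp3* shares were 24.4% and 5.59%. The median depth was 2099.5 and 1583 UMIs in *Foxp3* cells and 1522 and 2930 in pDCs. The thinned *Foxp3* shares of *Tcf7* lay above the thinned pDC share of the same library, while their intervals overlap those of myeloid cells in both libraries. Of the thinned *Foxp3* cells, 42 and 492 shallower ones were left out.

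Within the naive-like class of the WT-labelled library, the members did not fall into the same cells evenly. Of 769 thinned cells, 212 had both *Lef1* and *Foxp1*, 1.19 times the number that independence would give, and 229 had both *Lef1* and *Satb1*, 1.20 times that number. *Tcf7* with *Satb1* (149 cells, 0.964 times) and *Tcf7* with *Klf2* (209 cells, 1.02 times) lay near the number of independence. The lowest of the 28 pairs was *S1pr1* with *Dapl1*, with 15 cells against 17.3 by independence (0.869 times). The same pair was at 1.03 times in the dKO-labelled library. The 28 pairs of the dKO-labelled library ran from 0.990 times for *Tcf7* with *Bach2* to 1.54 times for *Lef1* with *Dapl1*. These are a description of sparse counts.

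Between the libraries, over all cells, 6 of 8 members were at least 2-fold lower in the dKO-labelled library, where 5.16% of all genes were, and 0 were 2-fold higher, where 5.58% were. *Lef1* had 231 CPM (225 to 237) in the WT-labelled library and 71.5 CPM (68.9 to 74.3) in the dKO-labelled library, a log2 ratio of −1.69 (−1.76 to −1.63). *Tcf7* had 236 CPM (229.6 to 242) and 83.7 CPM (80.8 to 86.6), a log2 ratio of −1.49 (−1.56 to −1.43). *Dapl1* had 24.5 CPM (22.5 to 26.6) and 9.95 CPM (8.97 to 11), a log2 ratio of −1.30 (−1.49 to −1.11). None of these pairs of intervals overlaps. *Bach2* had −1.17 (−1.23 to −1.11), *S1pr1* −1.14 (−1.21 to −1.06) and *Satb1* −1.03 (−1.08 to −0.98), while *Foxp1* had −0.32 (−0.36 to −0.28) and *Klf2* −0.24 (−0.27 to −0.22). When CPM was averaged over cells in place of summing UMIs, 3 of 8 members were 2-fold lower, where 5.05% of all genes were.

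The mix of classes also differed, as the dKO-labelled library held a smaller share of naive-like cells and larger shares of *Foxp3* cells and other T. When the class levels of the dKO-labelled library were weighted by the class mix of the WT-labelled library, the log2 ratio of *Tcf7* went from −1.49 to −0.58, that of *Dapl1* from −1.30 to −0.19 and that of *S1pr1* from −1.14 to −0.34. At the class mix of the dKO-labelled library they were −1.05, −0.82 and −0.78. *Lef1* went from −1.69 to −0.93 and −1.27, *Bach2* from −1.17 to −0.66 and −0.86, and *Satb1* from −1.03 to −0.61 and −0.75. *Foxp1* moved away from 0, to −0.52 and −0.47, and *Klf2* went to −0.16 and −0.41. Over all cells, all 8 members stayed below 0 at either mix. *Lef1* had the widest ratio at both, −0.93 at the mix of the WT-labelled library and −1.27 at the other. Over the T cell classes alone all 8 were below 0 as well, but *Klf2* and *Dapl1* lay close to it at the WT-labelled mix, both at −0.06. At the dKO-labelled mix they were at −0.41 and −0.65. *Foxp1* was at −0.76 and −1.04 over the T cell classes. No intervals were computed for ratios at a class mix. The ratios of all genes were not computed at these mixes, so no count past 2-fold is given. Among T cells 4 of 8 members were 2-fold lower, where 4.41% of all genes were, and *Foxp1* had a log2 ratio of −1.04 (−1.10 to −0.97). Among T cells without *Foxp3* 1 of 8 was, *Lef1* (−1.13 [−1.21 to −1.05]), where 3.55% were.

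Within classes the difference ran from none to more than 2-fold. In naive-like cells 0 of 8 members passed 2-fold in either direction, where 1.34% of all genes were lower and 2.49% higher. The members parted there: *Lef1* (−0.65 [−0.79 to −0.51]), *Foxp1* (−0.60 [−0.76 to −0.44]), *Satb1* (−0.47 [−0.61 to −0.34]) and *Bach2* (−0.40 [−0.55 to −0.24]) were lower in the dKO-labelled library, while *Tcf7* (0.06 [−0.09 to 0.21]) and *S1pr1* (0.12 [−0.07 to 0.31]) had intervals that include 0, and *Klf2* (0.26 [0.17 to 0.35]) and *Dapl1* (0.59 [0.29 to 0.88]) were slightly higher. In *Foxp3* cells 5 of 7 members were 2-fold lower, where 3.22% of all genes were, with a median log2 ratio of −1.48 against 0.03 over all genes. *Tcf7* had the widest ratio, −1.89 (−2.18 to −1.60), followed by *Lef1* with −1.67 (−1.92 to −1.42), *S1pr1* with −1.54 (−1.85 to −1.23), *Foxp1* with −1.48 (−1.67 to −1.30) and *Bach2* with −1.14 (−1.38 to −0.90). *Klf2* (−0.93 [−1.05 to −0.81]) and *Satb1* (−0.70 [−0.93 to −0.46]) were lower by less than 2-fold.

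The central gate divided the *Foxp3* difference as well, though the difference between gates was not tested. With the gate 1 of 7 members, *Foxp1* (−1.04 [−1.38 to −0.69]), was 2-fold lower, where 2.39% of all genes were, and *Klf2* did not differ beyond counting error (0.17 [−0.09 to 0.45]). Even so, 6 of the 7 gated ratios were below 0, with a median log2 of −0.59 against 0.02 over all genes. Without the gate 6 of 7 were 2-fold lower, where 3.27% were, and the median was −1.32 against 0.04. There *Tcf7* was at −1.93 (−2.29 to −1.56), *S1pr1* at −1.57 (−1.94 to −1.19) and *Klf2* at −1.08 (−1.22 to −0.95). Of the recirculation list, *Klf3* was 2-fold lower in *Foxp3* cells of the dKO-labelled library (log2 −1.35), as was the gate gene *Ccr7* (−1.35). Of 10 naive T cell genes 4 were lower there, *Igfbp4* (−1.71), *Actn1* (−1.14), *Nsg2* (−2.13) and *Id3* (−1.52), and *Ramp1* was higher (1.39). In the retention list the transcriptional regulator *Id2* was higher (1.23) and *Cd69*, whose protein blocks S1PR1, was lower (−1.04). Of 9 quiescence genes 1, *Btg2*, was 2-fold lower (−1.31).

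Other T showed a difference like that of *Foxp3* cells, with 7 of 8 members 2-fold lower in the dKO-labelled library, where 3.21% of all genes were, among them *Lef1* (−1.69 [−1.85 to −1.54]) and *Tcf7* (−1.52 [−1.67 to −1.37]). *Ikzf2* was 902 CPM in other T of the dKO-labelled library against 227 CPM in the WT-labelled library, and its part in these ratios was not tested. In the cytokine and helper classes the differences were smaller. Cells with *Ifng* alone had 1 of 8 members past 2-fold, where 3.46% were, and this was *Dapl1*, with 2 UMIs in the dKO-labelled library and 51 in the WT-labelled library (log2 −3.18 [−6.26 to −1.25]). Cytotoxic-type cells also had 1 (*Lef1*, −1.14 [−1.44 to −0.85]), where 2.34% were. *Cd40lg* helper cells had 0 of 8 and cells with *Il17* alone 0 of 7, where 2.33% and 1.71% were. Members also differed outside T cells: in pDCs 3 of 7 were 2-fold lower in the dKO-labelled library, where 2.01% of all genes were, and these were genes at low levels there, *Tcf7* (−2.41 [−2.92 to −1.91]), *Lef1* (−2.48 [−2.99 to −1.99]) and *S1pr1* (−1.57 [−2.23 to −0.90]). Of the genes that pDCs express, *Satb1* was at −0.69 (−0.84 to −0.54), *Klf2* at −0.57 (−0.61 to −0.52), *Bach2* at −0.44 (−0.63 to −0.25) and *Foxp1* at −0.09 (−0.17 to −0.01). The part of free RNA in the T cell ratios was not tested.

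**Figure D3:**
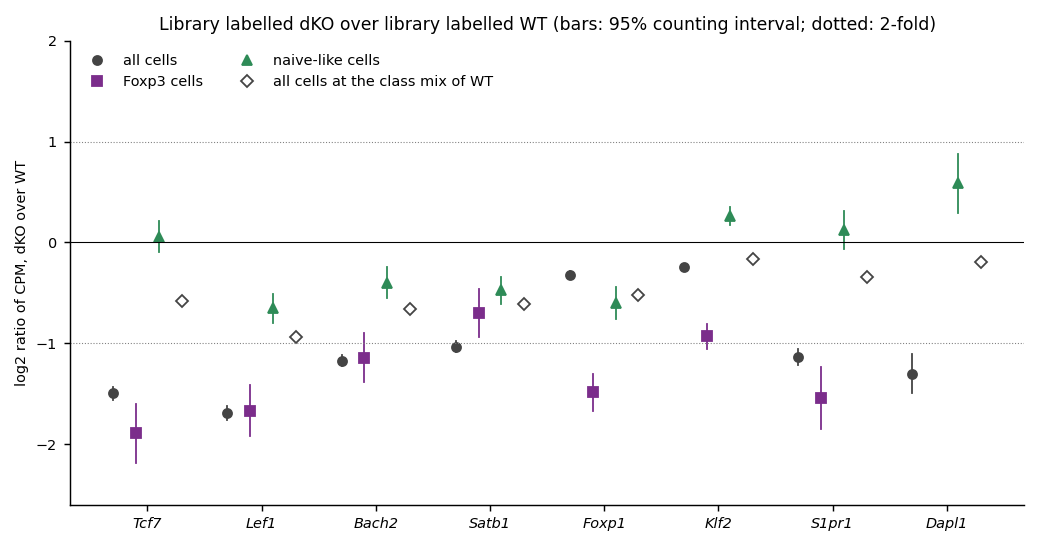
Log2 ratio of CPM, dKO-labelled library over WT-labelled library, for each member over all cells, in Foxp3 cells and in naive-like cells (bars, exact 95% intervals) and over all cells at the class mix of the WT-labelled library (open diamonds, no interval); dotted lines mark 2-fold. The ratios of Tcf7, Klf2 and S1pr1 lie below 0 in Foxp3 cells. In naive-like cells the intervals of Tcf7 and S1pr1 include 0, and that of Klf2 lies above 0.

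Cycling cells (3 or more of 10 proliferation genes such as *Mki67*) are by definition not quiescent. Among T cells without *Foxp3*, 6 of 8 members were 2-fold lower in cycling than in the remaining cells of the WT-labelled library, where 6.7% of all genes were, and 2 of 8 in the dKO-labelled library, where 11.5% were. The remaining cells (6060 and 7696) included the naive-like class (824 and 542 cells). Cycling cells had medians of 3430 and 4578.5 UMIs, against 1763 and 1334.5 in the remaining cells. The parts of naive-like cells and of depth in these ratios were not tested. *Bach2* was 2-fold lower in both, with log2 ratios of −1.87 (−2.11 to −1.65) and −1.23 (−1.55 to −0.93), as was *Dapl1* (−2.16 [−3.01 to −1.43] and −1.17 [−2.10 to −0.37]). *Tcf7* had 146 CPM (129.7 to 165) and 140.1 CPM (120.4 to 162) in cycling T cells and 319 CPM (309.5 to 329) and 176 CPM (168 to 183) in those not cycling (−1.12 [−1.31 to −0.95] and −0.33 [−0.55 to −0.10]). The cycling cells of both libraries thus had overlapping levels of *Tcf7*, and the other cells did not. *S1pr1* had 108 against 181 CPM in the WT-labelled library (−0.74 [−0.95 to −0.53]) and 129 against 118 CPM in the dKO-labelled library (0.14 [−0.10 to 0.37]), a difference within counting error in the latter. In *Foxp3* cells, 4 of 7 members were 2-fold lower in cycling cells of the WT-labelled library, where 5.64% of all genes were, and 1 of 7 in the dKO-labelled library, *Bach2* (−1.13 [−1.61 to −0.68]), where 10.1% were. *Lef1* was at −1.17 (−1.77 to −0.61) and 0.49 (0.14 to 0.82) there, and *S1pr1* at 0.02 (−0.50 to 0.52) and 0.85 (0.48 to 1.21). *Foxp3* cycling cells had medians of 5165 and 5607 UMIs, against 2099.5 and 1583 in *Foxp3* cells, and the part of depth was not tested.

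Clone size was read from the receptor libraries, which gave a β chain for 32.7% and 23.5% of cells. The clonotype was that of any productive chain, so a cell with an α chain alone was also counted in a clone. Among T cells without *Foxp3*, those of clones of 10 or more cells (628 and 722 cells) were set against those whose clonotype was found in 1 cell (1804 and 1596). Of the 8 members 5 were 2-fold lower in large clones of the WT-labelled library, where 3.29% of all genes were, and 8 in those of the dKO-labelled library, where 3.32% were. *Lef1* had 447 CPM (428 to 466) and 182 CPM (167 to 197) in clones of 1 and 93.8 CPM (78.6 to 111) and 57.7 CPM (45 to 72.8) in large clones (log2 −2.25 [−2.51 to −2.0] and −1.66 [−2.03 to −1.30]). *Tcf7* fell from 370.1 to 189.7 CPM in the WT-labelled library (−0.96 [−1.15 to −0.78]) and from 241 to 36.6 CPM in the dKO-labelled library (−2.72 [−3.19 to −2.29]). *Klf2* fell from 940.2 to 631 CPM (−0.58 [−0.68 to −0.47]) and from 771 to 284 CPM (−1.44 [−1.60 to −1.28]). *Dapl1* had 2 and 4 UMIs in large clones. In each library every member was below its level in clones of 1. Clones of 2 to 9 cells had 6 and 4 of 8 members 2-fold below clones of 1, where 2.16% and 0.942% of all genes were. *Klf2* had 436 and 497 CPM in them, so in the WT-labelled library its lowest level was in clones of intermediate size.

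Naive-like cells were 23.0% and 12.3% of clones of 1 and 0.796% and 0.970% of large clones. Without naive-like cells, 5 of 8 members in the WT-labelled library and 7 of 8 in the dKO-labelled library were still 2-fold lower in large clones, where 2.76% and 3.13% of all genes were, with *Lef1* at −1.78 (−2.06 to −1.52) and −1.24 (−1.64 to −0.85) and *Tcf7* at −0.74 (−0.94 to −0.55) and −2.66 (−3.17 to −2.19). In the dKO-labelled library most large-clone cells without a *Foxp3* UMI belonged to clonotypes that also held *Foxp3* cells: 51 of 722 remained when these clonotypes were left out, against 397 of 628 in the WT-labelled library. In the remaining cells 5 of 8 and 7 of 7 members were 2-fold lower, where 4.03% and 11.6% of all genes were, with *Klf2* at −0.49 (−0.62 to −0.37) and −2.45 (−3.29 to −1.73). *Ikzf2* was 666 CPM in all large-clone cells of the dKO-labelled library and 178 CPM in the remaining ones. The largest clone held 88 and 255 of the large-clone cells without a *Foxp3* UMI, and without it 6 of 8 and 8 of 8 members were 2-fold lower, where 3.23% and 4.19% of all genes were.

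Among *Foxp3* cells of the dKO-labelled library, 3 of 7 members were 2-fold lower in clones of 10 or more (366 cells) than in clones of 1 (539 cells), where 1.42% of all genes were: *Tcf7* (−2.24 [−3.43 to −1.24]), *S1pr1* (−2.08 [−3.09 to −1.20]) and *Bach2* (−1.38 [−1.98 to −0.82]). Without the 144 *Foxp3* cells of the largest clone, 4 of 7 were, where 2.1% of all genes were, *Klf2* being added (−1.17 [−1.55 to −0.81]). A β chain was found in 77.3% of the 366 cells, in 62.6% of them without the largest clone and in 76.3% of the 539 cells. In the WT-labelled library 9 *Foxp3* cells lay in such clones, too few for a comparison.

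**Figure D4:**
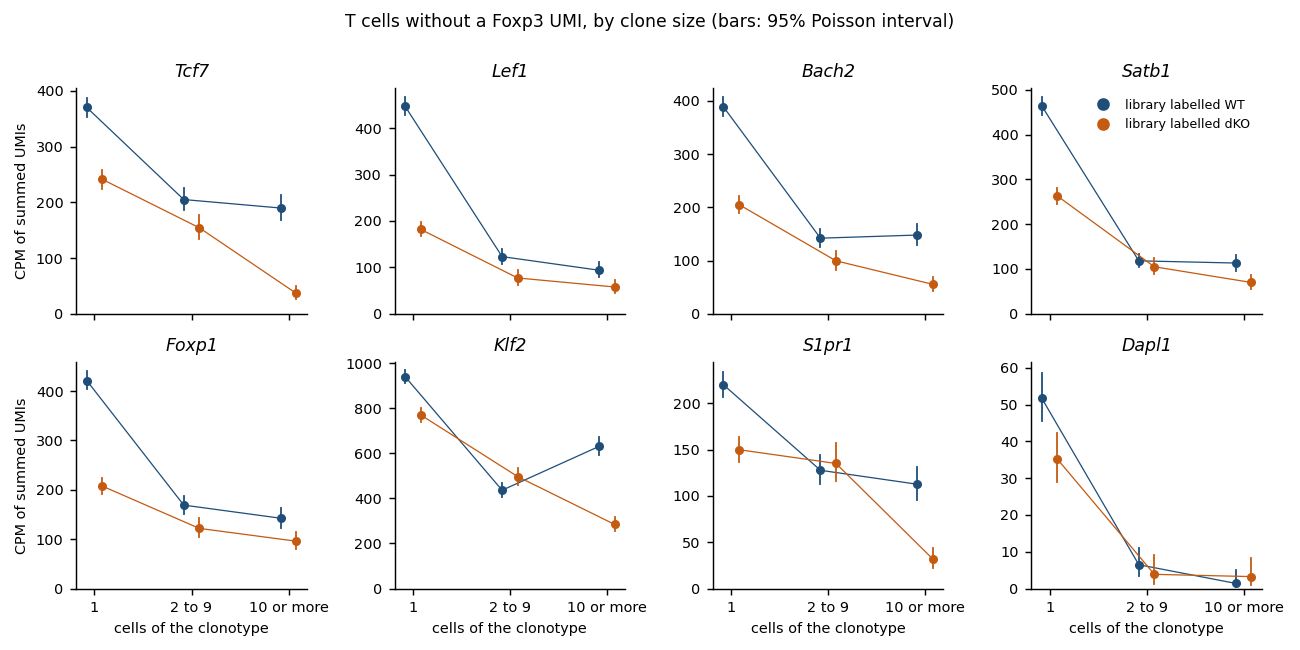
Level of each member in CPM (linear axis from 0) in T cells without Foxp3 by the number of cells of their clonotype, for each library, with exact Poisson 95% intervals. Clones of 10 or more lie below clones of 1 for every member in both libraries.

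Droplets with few ribosomal UMIs can be rich in nuclear RNA, which holds unspliced RNA of long genes. The low-ribosomal T class had 79 and 49 droplets. Against the remaining T cells, 0 of 7 members were 2-fold higher and 2 lower in the WT-labelled library, where 29.5% and 19.4% of all genes were, and 3 of 6 higher and 2 lower in the dKO-labelled library, where 21.6% and 36.8% were. With so many of all genes past 2-fold, nothing is read from these counts. *Bach2* was at 0.88 (0.54 to 1.20) and 1.74 (1.05 to 2.36) and *Klf2* at −1.42 (−1.87 to −1.01) and −1.58 (−2.71 to −0.66). *Foxp1* was at 0.59 (0.23 to 0.92) and 1.23 (0.44 to 1.91) and *Satb1* at 0.06 (−0.38 to 0.47) and 1.55 (0.86 to 2.17). In the WT-labelled library the direction of 3 of these turned: *Bach2* went to −0.19 and *Satb1* to −1.55 when T cells needed a β chain, and *Satb1* went to −0.66 and *Foxp1* to −0.14 when trimmed mean of M-values (TMM) factors scaled the libraries. The need for a β chain left 17 low-ribosomal droplets of that library. A wider set held all low-ribosomal droplets without a lineage call (291 and 336), of which 79 and 49 were the low-ribosomal T class. The others had fewer than 2 T cell genes. A β chain was found in 8.25% and 2.08% of the set, against 43.6% and 31.9% of the remaining T cells. The set may hold other cell types, and their part in the ratios was not tested. In this set *Bach2* (1.41 [1.24 to 1.58] and 1.78 [1.52 to 2.03]), *Foxp1* (0.95 [0.76 to 1.13] and 1.99 [1.77 to 2.21]) and *Satb1* (0.69 [0.47 to 0.89] and 1.56 [1.29 to 1.81]) were higher, and *S1pr1* (−0.53 [−0.97 to −0.11] and −1.10 [−2.01 to −0.32]) and *Klf2* (−1.07 [−1.31 to −0.84] and −1.86 [−2.31 to −1.44]) were lower. *Tcf7* had an interval that includes 0 in the WT-labelled library (−0.24 [−0.54 to 0.05]) and was lower in the dKO-labelled library (−1.42 [−2.29 to −0.67]), and *Lef1* was at 0.06 (−0.21 to 0.32) and 0.41 (−0.06 to 0.84). With TMM, *Lef1* was at −0.57 and −0.34, *Satb1* at 0.05 and 0.80 and *Foxp1* at 0.32 and 1.24, so that of the members given here only *Lef1* changed direction. Over all genes the median ratio was −1.03 and −1.51 for spans under 10 kb and 1.70 and 1.92 for 100 kb or more. For spans from 10 to 100 kb it was 0.48 and 0.39, above *Tcf7*. *Malat1*, an RNA kept in the nucleus, had 14579 and 18089.6 CPM in these droplets and 6544 and 6027 CPM in the remaining T cells. Low-ribosomal droplets of T cells were left out of the other T cell classes.

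**Figure D5:**
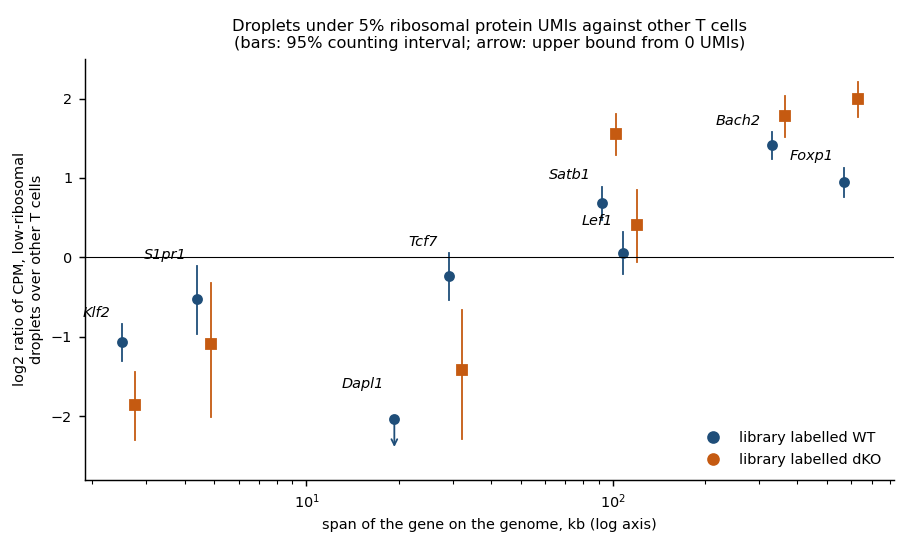
Log2 ratio of CPM, low-ribosomal droplets without a lineage call over the remaining T cells, against gene span in kb (log axis) for the members, with exact 95% intervals; the arrow marks Dapl1 at an upper bound from 0 UMIs. Bach2, Foxp1 and Satb1 lie above 0 and the short Klf2 and S1pr1 below it in both libraries. Most of these droplets had fewer than 2 T cell genes, and the part of cell type was not tested.

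The members were compared over 19 sums, each a T cell class of 1 library with 50 or more cells. Low-ribosomal T was among them for the WT-labelled library alone. Across these sums the members are set out in 2 groups by Pearson's r of log2(CPM + 10). No clustering was run, and r without the low-ribosomal sum is not given. *Lef1*, *Bach2*, *Satb1* and *Foxp1* had r from 0.86 to 0.93 with each other, and *Klf2*, *S1pr1* and *Dapl1* from 0.85 to 0.87. Between the groups r was as low as 0.57, for *Foxp1* with *Klf2* and for *Bach2* with *Klf2*, and as high as 0.83, for *Lef1* with *Dapl1*. *Tcf7* stood between, with 0.89 to *Bach2* and 0.82 to *S1pr1*. The genes most like each member, of 5581 compared, were *Klf3*, *Evl* and *Bach2* for *Tcf7* (r from 0.90 to 0.89), *Pik3ip1*, *Satb1* and *Actn1* for *Lef1* (0.95 to 0.92), *Scml4*, *Ssbp2* and *Dusp10* for *Bach2* (0.95 to 0.93), and *Pik3ip1*, *Dph5* and *Lef1* for *Satb1* (0.96 to 0.93). For *Foxp1* they were *Thada*, *Ssh2* and *Ssbp2* (0.95 to 0.94), for *Klf2* *Pim2*, *Txk* and *Rflnb* (0.94 to 0.91), for *S1pr1* *Dapl1*, *Igfbp4* and *Klf2* (0.87 to 0.86), and for *Dapl1* *Igfbp4*, *Nsg2* and *Plaur* (0.97 to 0.94). Most of these lists changed with the measure of likeness: under another measure, 9 of 16 lists shared fewer than 2 of the 3 genes. The sums share 2 libraries and differ in depth and ribosomal share, so these values are a description.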

How the data were processed

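Hepatic CD4+ T cells were measured by droplet sequencing (10x 5′ kit) in 1 library per genotype. The authors deposited UMI counts per gene and cell, made with Cell Ranger 7.0.1 on mm10 per the submitters' notes and the methods, unnormalized and limited to called cells, with contig tables of the receptors. Whether intronic reads were counted is not given in the sources used here. Cells with over 200 genes and under 5% mitochondrial UMIs were kept. UMIs were summed per class and library and expressed in CPM. Ratios have exact conditional binomial intervals, levels Poisson and shares Clopper-Pearson intervals. A ratio was counted past 2-fold among genes with 50 or more UMIs over both groups and, a criterion added after the data were seen, at least 5 UMIs expected in the smaller group at equal levels. A group at 0 was set to 3 UMIs and its ratio read as a bound.

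The 8 members, the further gene lists and the classes were chosen with earlier results of these data known. A gene planned for the naive-like class and the central gate, and a class outside T cells, are not reported here, so both gates rest on *Ccr7*, a change made after the results were seen. The members were described in full, and of each further list up to 4 genes with the largest ratios among those with 50 or more UMIs in both groups. A few other genes were named after their values were seen, because a count of 5 or fewer rests on them. For each member the 3 genes with the highest correlation were named. No doublet caller was run: cells called as another lineage with 3 or more T cell genes were set aside as mixed, and removal of cells with 2 β chains was an alternative. Ratios and intervals were tested on simulated data. Intervals were computed with scipy 1.17.1, tables with pandas 2.3.3 and numpy 2.4.6 and figures with matplotlib 3.10.9 under Python 3.11.15, and edgeR 4.0.16 in R 4.3.3 for TMM factors alone. Alternatives were the cell filter, TMM, CPM averaged over cells, a stricter *Foxp3* gate, other ribosomal limits, 1 cell per clonotype, other depths and other measures of likeness.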

Additional observations from a re-analysis of the deposited data

Results flagged for a closer look

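Of 158 pairs of member ratios, from 22 comparisons made in both libraries, 23 had opposite signs, 7 of them with intervals apart. Among the 23 are *Lef1*, *Satb1* and *Foxp1* in *Foxp3* cells of clones of 10 or more over clones of 1. These rest on 9 cells of the WT-labelled library, and none has intervals apart. They were counted with and without the largest clone, which in that library are the same cells. The differences were not tested, since each genotype has 1 library. In *Foxp3* cycling over *Foxp3* cells, the log2 ratio of *Lef1* was −1.17 in the WT-labelled library and 0.49 in the dKO-labelled library. In cycling over other T cells without *Foxp3*, *S1pr1* was at −0.74 and 0.14, and the interval of the latter includes 0. With the central gate over other *Foxp3* cells, *Klf2* was at −0.02 and 1.24, and the interval of the former includes 0. With a UMI of *Il1rl1* over *Foxp3* cells without it, *Klf2* was at −0.40 and 0.25. In *Foxp3* cells over T cells without *Foxp3*, *Foxp1* was at 0.13 and −0.48, and the interval of the former includes 0. In pDCs over naive-like cells, *Klf2* was at 0.30 and −0.53 and *Foxp1* at −0.35 and 0.16. *Foxp3* and naive-like cells were also set side by side. Between the dKO-labelled library and the WT-labelled library, *Klf2* was at −0.93 in *Foxp3* cells and 0.26 in naive-like cells, *Tcf7* at −1.89 and 0.06 and *S1pr1* at −1.54 and 0.12, and the naive-like intervals of *Tcf7* and *S1pr1* include 0.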

How the results depend on the processing

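Over all alternatives, 182 counts of members past 2-fold stayed within 1.5 times the reported count and 14 did not, and of 586 log2 ratios of members 56 moved beyond their interval and 10 changed sign. Of 48 shares of all genes past 2-fold, 9 moved by over 1.5 times, in the naive-like, central-gate and low-ribosomal comparisons. Of the sign changes, 7 concern low-ribosomal droplets and 3 are *Klf2* with the central gate in the WT-labelled library, whose interval includes 0 (0.14 when T cells needed a β chain, 0.05 with *Foxp3* at 2 or more UMIs and 0.07 with 1 cell per clonotype). Over all cells, 3 members in place of 6 were 2-fold lower by CPM averaged over cells. The other counts that moved are those of low-ribosomal T. In the WT-labelled library, 1 member in place of 0 was higher with a limit of 3%, with droplets without a lineage call and by CPM averaged over cells, and 1 in place of 2 was lower with cells of 2 β chains removed, a limit of 3%, 1 cell per clonotype and CPM averaged over cells, but 4 with TMM. In the dKO-labelled library, 0 in place of 3 were higher with TMM, and 1 in place of 2 was lower with cells of 2 β chains removed and a limit of 3%. When a β chain was needed, 4 droplets were left there, and the counts were 0 higher and 0 lower. A member without enough UMIs adds nothing to a count and 4 droplets hold few UMIs, so nothing is read from these 2 counts. TMM lowers all low-ribosomal T ratios by its log2 factor of 0.72 and 1.0. In the other comparisons the factor, which is subtracted in the same way, ran from −0.19 to 0.07. At 500 or 2000 UMIs a cell, 290 thinned shares moved beyond their interval and 86 did not. Under another measure of likeness, 13 of 16 lists of the 3 genes most like a member held another set, and 9 shared fewer than 2 of the 3 genes. The planned stricter gate for naive-like and central-gate cells was not run. No paired analysis was possible because each group is 1 library. The cause of these changes was not tested. Depth limits *Dapl1* in *Foxp3* cells (12 and 28 UMIs) and every value of B cells, and 1 library per genotype limits every difference between genotypes.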

Other observations

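The share of thinned *Ifng* or *Il17* cells with no UMI of any member was 29.4% (27.0 to 31.8) and 37.3% (34.1 to 40.6), and of pDCs 19.2% (16.9 to 21.8) and 22.2% (20.8 to 23.6). Mixed droplets, with markers of another lineage and T cell genes, had 849.8 and 887 CPM of *Klf2* and 164 and 63.7 CPM of *Tcf7* in 356 and 831 droplets. Cells that no marker assigned (1448 and 1575) had 394 and 228 CPM of *Bach2* and 314 and 154 CPM of *Tcf7*.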
